A study of Sus scrofa with 9 samples.

Results

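The DLK1-DIO3 miRNA cluster is a long run of miRNA hairpins in an imprinted chromosome region, and its members were followed here in porcine granulosa cells (PGCs) under oxidative stress. Members were taken by name: every entry of the deposited table whose miRNA number is one of 43 numbers known from this locus. The rule used no measured value, though its numbers were chosen with earlier results of these data known. It found 75 of the 1345 entries, covering 33 of the 43 numbers. The other 10 numbers (miR-134, miR-337, miR-433, miR-654, miR-665, miR-668, miR-770, miR-889, miR-1185 and miR-1193) were not analysed here.

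The PGCs were primary cells from the ovaries of Landrace and Yorkshire crossbred sows, kept in culture and exposed for 12 h. Small RNA was sequenced in 3 libraries each of PGCs without H2O2 (CON), with 100 μM H2O2 (LOS) and with 300 μM H2O2 (MOS). The labels do not say whether the 3 libraries of a group came from separate cultures or animals, so p-values measure only the spread between these libraries. A bulk library also cannot tell apart fewer cells of a type and less RNA per cell.

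In mammals the region carries DLK1, RTL1 and DIO3, expressed from the paternal chromosome, and the noncoding MEG3 and related transcripts, expressed from the maternal chromosome and holding the miRNA hairpins. The miRNAs fall into a first group beside RTL1, of which miR-127, miR-136 and miR-431 lie antisense to that gene, and a long second group of related hairpins between miR-379 and miR-410, with which miR-656 just beyond it is counted here. They are best known from placenta, brain and muscle, and in mouse placenta the antisense miRNAs repress Rtl1. In the RefSeq annotation of Sscrofa11.1, MIR493, MIR127, MIR432 and MIR136 neighbour MEG3 and RTL1, and no allele-specific measurement was part of these data.

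The sequences below are those of the 10 entries whose level differed between groups, with the seed (bases 2 to 8, the stretch that pairs with targets) in capitals. They were read from the deposited table, 5′ to 3′, in DNA letters. In an entry name the prefix is the species whose miRBase name was matched, L (5′ end) and R (3′ end) are followed by how many bases the sequence is longer or shorter there than that name's sequence, and ss marks a substitution.
mmu-miR-431-5p_R-1: tGTCTTGCaggccgtcatgc
ssc-miR-127: tCGGATCCgtctgagcttggct
hsa-miR-136-3p_L-1: aTCATCGTctcaaatgagtct
mml-miR-380-3p_R-1: tATGTAATatggtccacgtct
cfa-miR-323: cACATTACacggtcgacctct
bta-miR-758_R-1: tTTGTGACctggtccactaac
oar-miR-323b: cCCAATACacggtcgatctct
bta-miR-154c: aGATATTGcacggttgatctct
hsa-miR-412-5p: tGGTCGACcagttggaaagtaat
ssc-miR-369_R-1: aATAATACatggttgatctt

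No 2 of these 10 shared a seed. Among the 49 distinct tested sequences of the cluster, 4 sets shared a seed (5 sets among the 67 distinct sequences of all 75 entries, where mmu-miR-370-3p and the untested ssc-miR-370_R-1 formed the other). The next sequences show the tested ones that shared a seed under different names, since entries with 1 seed are expected to pair with similar targets.
hsa-miR-539-3p: aTCATACAaggacaatttcttt
hsa-miR-485-3p: gTCATACAcggctctcctctct
chi-miR-154b-3p_R-1: aTCATACAtggttgaccttttt
hsa-miR-379-3p_R-1: tATGTAACatggtccactaac
chi-miR-411a-3p: tATGTAACacggtccactaac
hsa-miR-376b-3p_R-1: aTCATAGAggaaaatccatgt
hsa-miR-376a-3p_1ss20GA: aTCATAGAggaaaatccacat
The remaining tested set was ssc-miR-369 with its shorter form ssc-miR-369_R-1. Many sequences also shared the letters GGT starting at base 10, 11 or 12, read on the RNA strand. These letters stood there in 19 of the 49 distinct tested sequences of the cluster (38.8%), in 17 of its 32 3p sequences (53.1%) and in 6 of the 10 printed first, against 8.56% of the 713 distinct sequences tested in the whole table. The hairpins are related by sequence, so these sequences are not independent.

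Of the 75 entries, 57 were tested, those with 3 or more libraries at 10 normalized counts or above, and 18 were not. The 18 untested entries stayed low, with hsa-miR-541-3p_2ss17TC20AC the highest at 22.9 in MOS2, and 8 of them were at 0 in all 3 CON libraries. None of the 57 tested entries was at 0 in CON, and 52 held at least 10 in every CON library. The 57 entries carried 49 distinct sequences, since 16 of them shared the sequence and all 9 values with another name. The tested entries were mostly scarce: the median of their means was 78.7 normalized counts, against 105 over all 757 tested entries. By arm, 36 were 3p and 20 were 5p.

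The whole cluster took a small share of each library, and that share was larger in MOS. The summed entries made up 0.150, 0.141 and 0.140% of the normalized counts in CON, 0.143, 0.142 and 0.135% in LOS, and 0.187, 0.203 and 0.270% in MOS. Here and in the sums below, a sequence listed under more than 1 name was counted under each. With 1 entry per set of shared values, CON gave 0.138, 0.131 and 0.130%, LOS 0.132, 0.130 and 0.125%, and MOS 0.174, 0.190 and 0.252%. The MOS libraries lay above all CON and LOS libraries, and MOS3 lay well above MOS1 and MOS2. The sums over all 75 entries were 8388, 8281 and 8539 normalized counts in CON, 8153, 8600 and 8249.6 in LOS, and 9590.0, 10068 and 13610.2 in MOS.

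**Figure D1:**
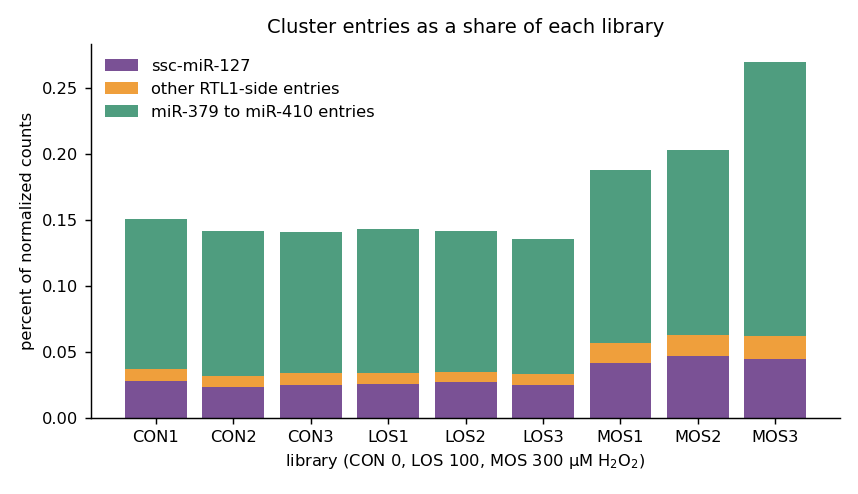
Stacked bars give the percent of each library's normalized counts held by ssc-miR-127, by the other RTL1-side entries and by the entries between miR-379 and miR-410. A sequence is counted under each of its names. The 3 MOS bars reach 0.187, 0.203 and 0.270%, above every CON and LOS bar (0.135 to 0.150%), and the extra height of MOS3 lies mainly in the miR-379 to miR-410 entries.

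The extra amount in MOS3 was not spread evenly over the cluster. ssc-miR-127 averaged 1482 ± 102 normalized counts over the CON libraries, 1544 ± 100.4 over the LOS libraries and 2228 ± 98.3 over the MOS libraries (SD, n = 3 each). The other RTL1-side entries together gave 513 ± 39.1 for CON, 471 ± 45.2 for LOS and 811 ± 79.0 for MOS. The miR-379 to miR-410 entries summed to 6407 ± 62.3 for CON, 6319 ± 173 for LOS and 8051 ± 2108 for MOS, where the SD reflects sums of 6713 in MOS1, 6958 in MOS2 and 10480.5 in MOS3.

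MOS was compared with CON to ask which cluster miRNAs differed at the higher dose. The test was limma on log2 of the normalized count plus 1, with Benjamini-Hochberg adjustment over all 757 tested entries, and an entry was called at an adjusted p under 0.05. Of the 57 tested entries, 8 were higher in MOS (14.0%) and 0 lower. Of the 8, ssc-miR-369_R-1 was among the 95 of all 757 entries that reached the 3 libraries needed only with MOS counted. Without ssc-miR-369_R-1, 7 of 56 cluster entries were higher (12.5%). The shares of all tested entries given here keep those 95, so they are not matched to this 12.5%. The 57 entries included 13 at an unadjusted p under 0.05 (22.8%, against 39.5% of all tested entries). Of all tested entries, 20.2% were called higher and 9.11% lower. The distance between these shares depended on the scaling: with every library set to an equal total, 14 of the 57 (24.6%) were called higher, against 25.6% of all tested entries. Without CON2 the 8 calls became 5. Among entries of at least 21 nt, 6 of 55 cluster entries (10.9%) were called higher, against 11.8% of all 585. The MOS and CON libraries did not overlap in 18 of the 57 entries, all higher in MOS (31.6%, background 26.2%), while 15.2% of all entries lay apart and lower. The 18 include ssc-miR-369_R-1. Among entries of at least 21 nt, 16 of 55 cluster entries lay apart and higher (29.1%, against 17.4% of all 585), and 19.1% of all 585 lay apart and lower. The median log2 fold change of the 57 was 0.20, against 0.07 over all tested entries, and 45 of 57 (78.9%) were above 0, against 54.95% of all. Over all 585 entries of at least 21 nt, the median was −0.02 and 48.2% were above 0.

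On the RTL1 side, 3 of 9 tested entries were higher in MOS than in CON (33.3%, against 20.2% of all tested entries): ssc-miR-127, hsa-miR-136-3p_L-1 and mmu-miR-431-5p_R-1. All lie opposite RTL1, and miR-431 is also known in mouse as a regulator of muscle progenitor cells. ssc-miR-127, the most abundant entry of the cluster, had 1562, 1368 and 1516 normalized counts in CON, 1469.9, 1658 and 1504 in LOS, and 2128, 2325 and 2229.8 in MOS. Its MOS libraries all lay above the other 6, and CON and LOS overlapped. The log2 fold change was 0.59 ± 0.10 (SE) in MOS against CON (limma, adjusted p = 0.00195) and 0.53 ± 0.10 in MOS against LOS (adjusted p = 0.00377).

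hsa-miR-136-3p_L-1 had 203, 265 and 273 normalized counts in CON, 198, 176 and 249 in LOS, and 384, 542.998 and 497 in MOS. CON and LOS overlapped, and each MOS library was above all of them. Its log2 fold change was 0.94 ± 0.20 in MOS against CON (limma, adjusted p = 0.00549). Against LOS it was 1.19 ± 0.20 (adjusted p = 0.00155), the highest of the cluster in that comparison. mmu-miR-431-5p_R-1 had 58.1, 58.9 and 68.6 normalized counts in CON, 64.6, 56.0 and 58.8 in LOS, and 107, 85.4 and 133 in MOS. MOS again lay apart, with a log2 fold change of 0.78 ± 0.20 against CON (limma, adjusted p = 0.0167) and 0.83 ± 0.20 against LOS (adjusted p = 0.0120). The CON call of miR-431 was lost without CON1 (adjusted p = 0.0594) or without CON2 (adjusted p = 0.0595).

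The opposite arms of miR-127 and miR-136 were far scarcer and were not called, and no entry of the opposite arm of miR-431 was found. hsa-miR-127-5p_R+1 had 12.6, 18.8 and 33.4 normalized counts in CON, 25.8, 13.6 and 29.4 in LOS, and 17.5, 6.37 and 31.4 in MOS, so the groups overlapped (log2 fold change of −0.36 ± 0.57 in MOS against CON). ssc-miR-136_R-1, the 5p arm of miR-136, had 22.8, 31.3 and 28.0 in CON, 24.5, 31.4 and 35.1 in LOS, and 41.1, 26.8 and 44.4 in MOS (log2 fold change of 0.42 ± 0.27). Of the rest of this side, ssc-miR-493-5p (also named chi-miR-493-5p), ssc-miR-432-5p_R+2 and mmu-miR-370-3p overlapped between MOS and CON except for mmu-miR-370-3p, whose MOS libraries (57.4, 47.2 and 50.9) lay just above CON (44.2, 28.6 and 42.4) without passing the test (adjusted p = 0.214, limma).

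**Figure D2:**
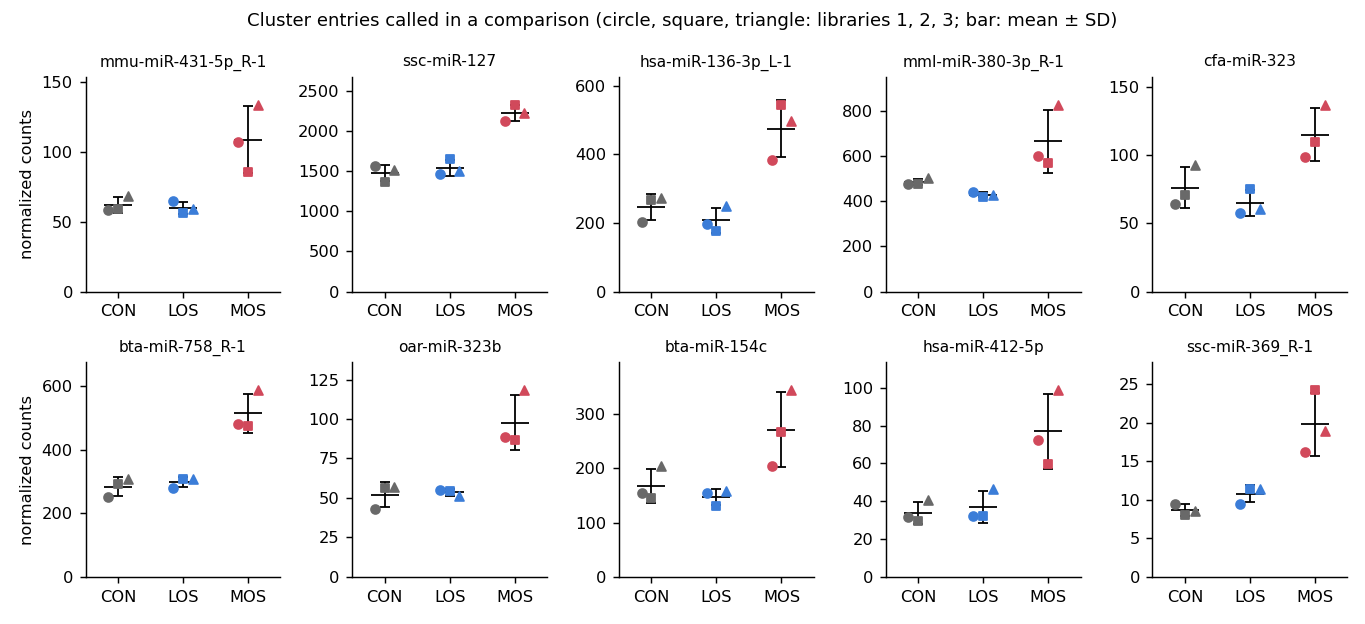
Each panel plots 1 of the 10 cluster entries called in a comparison, as normalized counts per library from 0, with symbols for libraries 1, 2 and 3 and bars for the mean ± SD of 3 libraries. In every panel all 3 MOS libraries lie above all CON and LOS libraries, for example 2128 to 2325 against 1368 to 1562 in CON for ssc-miR-127.

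Of the 48 tested entries of the miR-379 to miR-410 group, 5 were higher in MOS than in CON (10.4%, against 20.2% of all tested entries) and none was lower. These entries came from the hairpins of miR-758, miR-323b, miR-154c, miR-412 and miR-369. The last of them, ssc-miR-369_R-1, reached the filter only with MOS counted, so the 10.4% includes an entry tested because MOS was higher. bta-miR-758_R-1, from a hairpin known in human and mouse cells for repressing the cholesterol transporter ABCA1, had 252, 293 and 308 normalized counts in CON, 282, 309 and 308 in LOS, and 481, 477 and 587 in MOS. No MOS library came near the others, and this was the smallest adjusted p of the cluster (log2 fold change 0.85 ± 0.14, adjusted p = 0.00134, limma). Against LOS the log2 fold change was 0.77 ± 0.14 (adjusted p = 0.00290).

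miR-380 and miR-323 stand before miR-758 in the human order of hairpins, and both were called only in MOS against LOS. mml-miR-380-3p_R-1 had 476, 477 and 503 normalized counts in CON, 441, 419.7 and 426 in LOS, and 599.8, 571 and 826 in MOS. It lay lower in LOS than in CON in every library, so its log2 fold change was 0.61 ± 0.15 in MOS against LOS (limma, adjusted p = 0.0115) and 0.44 ± 0.15 in MOS against CON (adjusted p = 0.0529). cfa-miR-323 had 64.5, 70.5 and 92.9 in CON, 57.8, 75.5 and 60.7 in LOS, and 98.5, 109.6 and 137 in MOS. Its MOS libraries also lay above all others, with a log2 fold change of 0.82 ± 0.21 against LOS (limma, adjusted p = 0.0166) and 0.59 ± 0.21 against CON (adjusted p = 0.0657). The LOS call of cfa-miR-323 was lost without LOS1 (adjusted p = 0.0712) or LOS3 (adjusted p = 0.0614).

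1 miRNA of this stretch falls outside the name rule. bta-miR-1197 (tAGGACACatggtctacttct), which lies between miR-380 and miR-323 in the human order, had 32.9, 32.1 and 28.0 normalized counts in CON, 19.0, 28.0 and 26.6 in LOS, and 59.9, 52.3 and 60.7 in MOS. It is not counted among the members, and its log2 fold change was 0.87 ± 0.22 in MOS against CON (limma, adjusted p = 0.0161) and 1.21 ± 0.22 in MOS against LOS (adjusted p = 0.00325).

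The next pair of calls stood side by side further along the human order, where bta-miR-154c was put at the place of miR-154 by its number alone. oar-miR-323b had 43.0, 56.3 and 56.9 normalized counts in CON, 55.1, 54.3 and 51.2 in LOS, and 88.5, 86.7 and 118 in MOS. MOS was clear of the rest, with a log2 fold change of 0.89 ± 0.20 against CON (limma, adjusted p = 0.00876) and 0.84 ± 0.20 against LOS (adjusted p = 0.0109). bta-miR-154c, whose arm the name does not give, had 155, 145 and 204 in CON, 154.4, 131 and 158 in LOS, and 204, 266 and 343 in MOS. MOS1 and CON3 nearly touched, and the call against CON was the least firm of the 8 (log2 fold change 0.67 ± 0.22, adjusted p = 0.0426, limma). It was lost in 10 of 20 alternative fits, with adjusted p between 0.0120 and 0.137 over all of them. Against LOS its log2 fold change was 0.85 ± 0.22 (adjusted p = 0.0146), and this call was lost without LOS2 (adjusted p = 0.0617).

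In MOS against CON the highest fold changes among the called entries came from scarce entries of the miR-412 and miR-369 hairpins. hsa-miR-412-5p had 31.6, 29.5 and 40.6 normalized counts in CON, 32.0, 32.2 and 46.5 in LOS, and 72.3, 59.9 and 98.6 in MOS. CON and LOS overlapped and MOS lay above them, with a log2 fold change of 1.14 ± 0.26 against CON (limma, adjusted p = 0.00925). Against LOS it was 1.03 ± 0.26 (adjusted p = 0.0142), a call lost without LOS1 (adjusted p = 0.0602) or LOS2 (adjusted p = 0.0565).

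miR-369 is known from human cells for binding AU-rich stretches of TNF mRNA and raising its translation in resting cells, and it was present as a main entry and as a form 1 base shorter at the 3′ end. ssc-miR-369_R-1, of 20 nt, had 9.48, 8.04 and 8.57 normalized counts in CON, 9.52, 11.4 and 11.4 in LOS, and 16.2, 24.2 and 19.0 in MOS. No CON library and 2 LOS libraries reached 10, so this entry was tested only because MOS was higher. Its log2 fold change was 1.09 ± 0.27 against CON (limma, adjusted p = 0.0153, and 0.0397 with no filter on low values) and 0.81 ± 0.27 against LOS (adjusted p = 0.0520). ssc-miR-369, of 21 nt, had 355, 401 and 388 in CON, 364, 349.7 and 390.0 in LOS, and 304, 351 and 594 in MOS, a log2 fold change of 0.07 ± 0.22 against CON. With the forms summed the log2 fold change was 0.11 (adjusted p = 0.754), and without CON2 the call of the short form was lost (adjusted p = 0.0577).

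**Figure D3:**
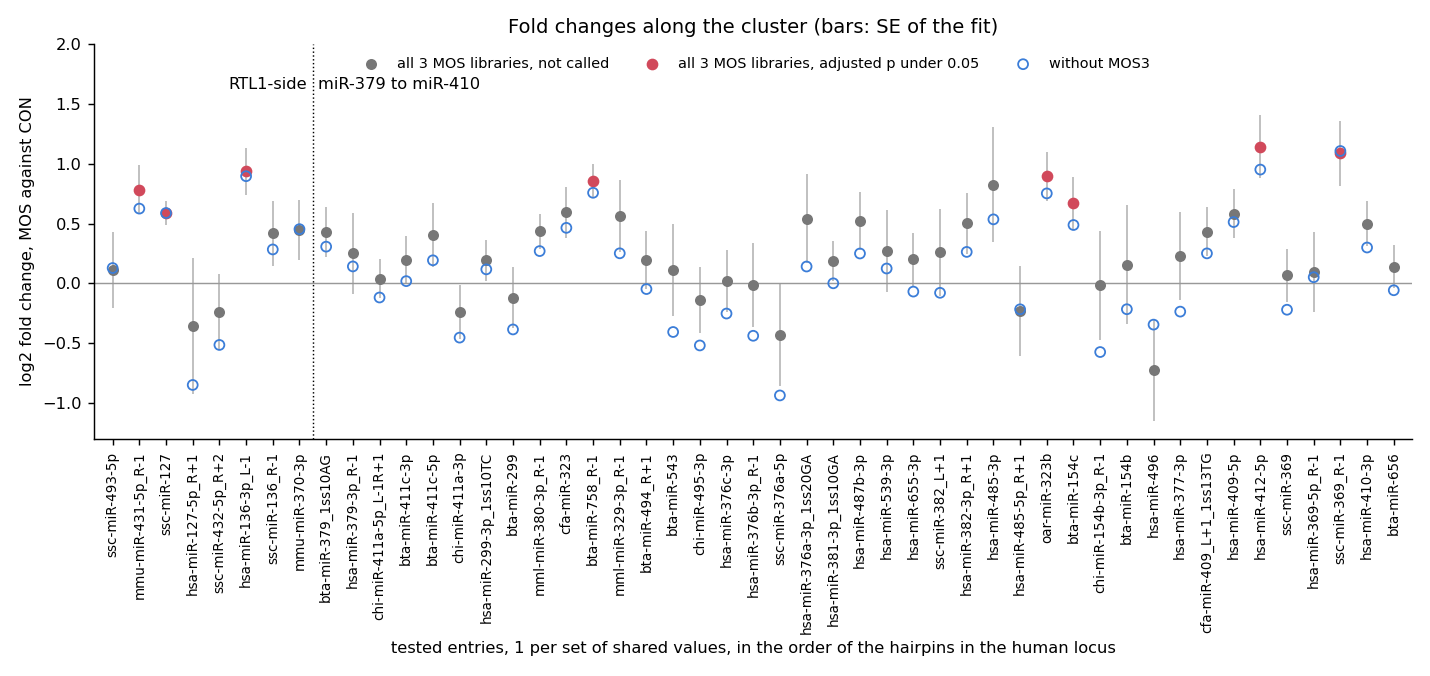
The log2 fold change of MOS against CON (± SE) is plotted for the 49 distinct tested entries in the order of their hairpins in the human locus, filled with all 3 MOS libraries and open without MOS3. The 8 called entries, in red, run between 0.59 and 1.14 and stand in both groups of hairpins, and most open circles of the miR-379 to miR-410 group lie below their filled ones.

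Several of the most abundant members did not pass the test in MOS against CON. hsa-miR-381-3p_1ss10GA, second to ssc-miR-127, had 1211, 1238 and 1033 normalized counts in CON, 1032, 1233 and 1097 in LOS, and 1115, 1202 and 1708 in MOS (log2 fold change 0.19 ± 0.17). bta-miR-656 had 302, 285 and 300.5 in CON, 266, 273 and 223 in LOS, and 289, 279 and 429 in MOS (log2 fold change 0.14 ± 0.18). In both entries MOS1 and MOS2 lay among or below the CON libraries, and MOS3 alone was high.

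cfa-miR-409_L+1_1ss13TG, the 3p arm of miR-409, had 196, 259.8 and 302 normalized counts in CON, 229.9, 209 and 251 in LOS, and 301, 292 and 433.4 in MOS (log2 fold change 0.43 ± 0.21). Its 5p arm, hsa-miR-409-5p, had 126, 83.5 and 125 in CON, 139, 174 and 153 in LOS, and 138, 178 and 182 in MOS, with a limma log2 fold change of 0.58 ± 0.21 against CON (adjusted p = 0.0625). The 5p arm was the 1 sequence of the cluster with an unadjusted p under 0.05 in LOS against CON, listed under 2 names. bta-miR-379_1ss10AG had 236, 221 and 171 in CON, 177, 241 and 164 in LOS, and 232, 286 and 332 in MOS (log2 fold change 0.43 ± 0.21), and its scarce 3p arm, hsa-miR-379-3p_R-1, stayed between 7.12 and 12.6 in all 9 libraries. chi-miR-411a-5p_L-1R+1 had 203, 207 and 186 in CON, 168, 175 and 157 in LOS, and 181, 184 and 254 in MOS, with a log2 fold change of 0.04 ± 0.16.

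MOS3 set itself apart from the other MOS libraries across the cluster. It was the highest of the 9 libraries in 47 of the 57 tested entries (82.5%), against 140 of all 757 tested entries (18.5%), and in 40 of the 49 distinct sequences. The log2 level in MOS3 exceeded the mean of MOS1 and MOS2 by a median of 0.58 over the cluster (quartiles 0.33 and 0.82), against −0.01 over all tested entries (quartiles −0.50 and 0.45). In CON and LOS the same median for any 1 library against the rest of its group stayed between −0.03 and 0.08 over the cluster. This pattern was noticed in the values, so its counts are a description.

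**Figure D4:**
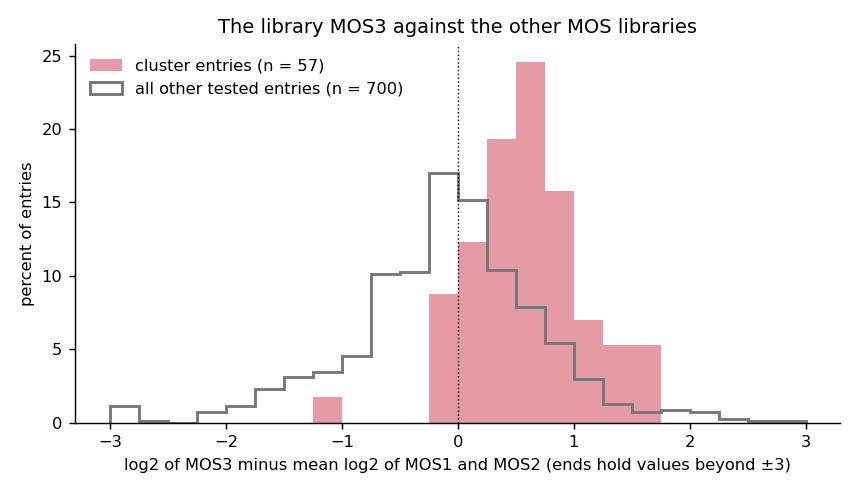
Histograms give the percent of entries by the log2 level in MOS3 minus the mean log2 level in MOS1 and MOS2, filled for the 57 cluster entries and outlined for the 700 other tested entries. The cluster entries centre at 0.58, to the right of the other entries, whose distribution centres near 0.

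In 12 of the 57 tested entries (21.1%, against 6.34% of all tested entries), MOS1 and MOS2 were below every CON library while MOS3 was above every CON library. chi-miR-495-3p had 276, 247 and 296 normalized counts in CON, 304, 283 and 276 in LOS, and 203, 177 and 419 in MOS. bta-miR-543 had 87.2, 133.9 and 121 in CON, 133.995, 122 and 123.4 in LOS, and 84.8, 84.1 and 250.3 in MOS. ssc-miR-376a-5p, from a family whose seed is edited by adenosine deaminases in human and mouse brain, had 43.0, 56.3 and 50.5 in CON, 46.3, 54.3 and 55.04 in LOS, and 36.2, 17.8 and 74.8 in MOS. In each of these the MOS mean hides libraries on opposite sides of CON. The pattern also held for ssc-miR-369, chi-miR-154b-3p_R-1, hsa-miR-377-3p, and for both arms of miR-411 and the 5p arm of miR-299 under 2 names each.

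Without MOS3 the cluster lay closer to the table as a whole in MOS against CON. The median log2 fold change was then 0.12, against 0.08 over all tested entries, and 33 of 57 entries were above 0. The share of all tested entries above 0 was not computed for this fit, and 30 of the 57 lay above the median of all tested entries. Limma called 8 of the 57 higher (14.0%, against 28.5% of all tested entries) and 2 of the 57 lower (against 142 of all 757). All 9 libraries gave 8 and 0. Of the 8 calls, 7 remained, bta-miR-154c was lost (log2 fold change 0.49, adjusted p = 0.0675) and mml-miR-380-3p_R-1 was gained (0.27, adjusted p = 0.0301). The lower calls were chi-miR-495-3p (log2 fold change of −0.52 without MOS3, −0.14 with it) and ssc-miR-376a-5p (−0.94 without MOS3, −0.43 with it). MOS3 was looked at apart after its values were seen, so these calls are a description. Its removal also narrowed the spread: the SE of mml-miR-380-3p_R-1 fell from 0.149 to 0.083 and its fold change from 0.44 to 0.27. Over the whole table, calls went from 153 higher and 69 lower to 216 and 142. The share of the library in MOS1 and MOS2 (0.187 and 0.203%) was above all CON libraries also with MOS3 set aside. That share is a percent of totals that were lower in MOS1 and MOS2 (5117859 and 4967112) than in any CON library (5578704 to 6084944). The cluster sums themselves were 9590.0 and 10068 normalized counts, against 8281 to 8539 in CON.

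MOS and LOS were compared to ask what separated the 2 doses. Of the 57 tested entries, 9 were higher in MOS (15.8%, against 18.9% of all tested entries) and 0 lower (against 10.8%), with 15 at an unadjusted p under 0.05 (26.3%, against 40.8%). Among entries of at least 21 nt, 8 of 55 cluster entries (14.5%) were called higher, against 9.06% of all 585. With every library set to an equal total, 20 of the 57 (35.1%) were called higher, against 30.3% of all tested entries. Whether the cluster's share lay above or below the background thus depended on entry length and scaling. In 18 of the 57 entries the MOS libraries all lay above the LOS libraries (31.6%, against 24.6% of all tested entries), and in 0 below them (against 16.5%). The 18 include ssc-miR-369_R-1, tested only because MOS was higher. At 21 nt or more, 16 of 55 cluster entries lay above LOS (29.1%, against 14.2% of all 585), and 21.4% of all 585 lay below it. The median log2 fold change was 0.26, against 0.08 over all tested entries. The 9 calls were 7 of the 8 made against CON, all but ssc-miR-369_R-1, with mml-miR-380-3p_R-1 and cfa-miR-323; the comparisons share the MOS libraries. Without MOS3 there were 11 higher calls (19.3%, against 26.6% of all tested entries) and 3 lower of the 57 (against 140 of all 757). All 9 remained, ssc-miR-369_R-1 (log2 fold change 0.83) and hsa-miR-410-3p (0.35, against 0.55 with MOS3) were gained, and bta-miR-543 (−0.58), chi-miR-495-3p (−0.60) and ssc-miR-376a-5p (−0.99) were the lower ones. The calls without MOS3 are again a description, since MOS3 was looked at apart after its values were seen.

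LOS was compared with CON to ask whether the lower dose moved the cluster. Limma called 0 of the 57 entries, with 2 at an unadjusted p under 0.05 (3.51%, against 9.64% of all tested entries) and a smallest adjusted p of 0.441, and of all tested entries, 2.51% were called higher and 0.396% lower. The log2 fold changes ran between −0.59 (hsa-miR-496, tested only because its CON libraries were counted) and 0.49 (hsa-miR-409-5p), with a median of 0.03. LOS lay apart from CON in 3 entries on the higher side (5.26%, against 12.4% of all tested entries) and in 4 on the lower side (7.02%, against 8.19%). The SE of a log2 fold change ran between 0.10 and 0.57 over the 57 entries, so small differences in the scarce entries were not detectable here.

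Ratios within a hairpin were compared for 10 pairs of arms and for the 2 lengths of miR-369, since arms of 1 hairpin share their precursor. The exact permutation test of 3 libraries against 3 cannot go below p = 0.1, so none of the 11 ratios could pass. The log2 ratio of the 20-nt to the 21-nt form of miR-369 was −4.15, −3.80 and −4.90 in MOS, above −5.08, −5.48 and −5.34 in CON (difference 1.02, exact p = 0.1, adjusted p = 0.55). The log2 ratio of the 3p to the 5p arm of miR-411 was −1.78, −2.04 and −1.73 in MOS, below −1.56, −1.62 and −1.54 in CON (difference −0.28, exact p = 0.1, adjusted p = 0.55). For miR-136 the log2 ratio of 3p to 5p was 3.19, 4.29 and 3.46 in MOS, above 2.96, 2.45 and 2.79 in LOS (difference 0.91, exact p = 0.1, adjusted p = 0.314), and it overlapped with CON (3.11, 3.05 and 3.24). The other 8 arm ratios overlapped between MOS and CON. LOS also lay apart from CON for miR-136 (lower, difference −0.39) and, narrowly, for miR-411 (higher, difference 0.09). Each had an exact p = 0.1 and an adjusted p = 0.55. For miR-411, MOS lay below LOS as well (difference −0.37, exact p = 0.1, adjusted p = 0.314).

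**Figure D5:**
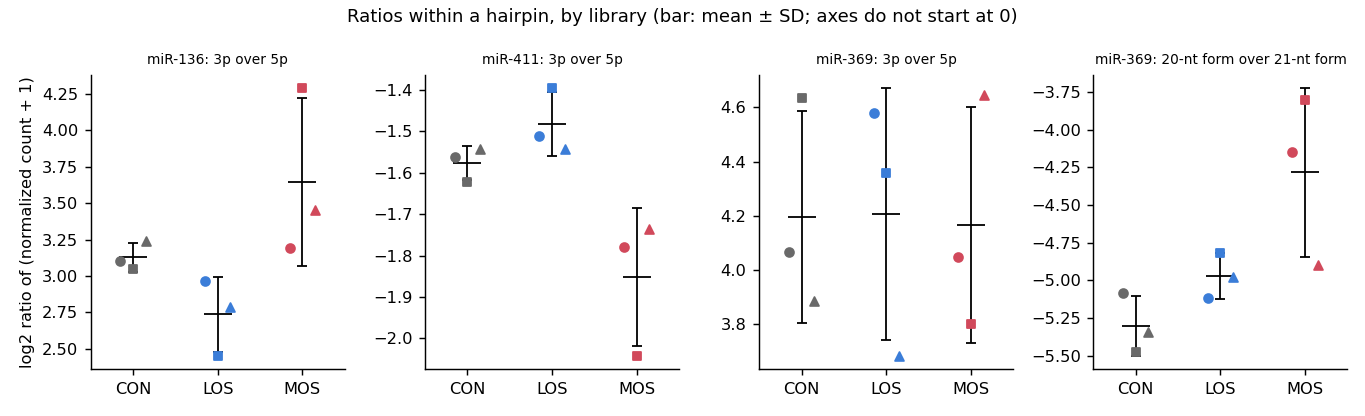
Points give the log2 ratio of normalized counts plus 1 within a hairpin for each library, with bars for the mean ± SD of 3 libraries, for 3 arm pairs and the 2 lengths of miR-369. MOS lies below CON in the miR-411 panel (−1.73 to −2.04 against −1.54 to −1.62) and above CON in the panel of miR-369 lengths, while the groups overlap for the arms of miR-369.

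Facts of the whole libraries moved with these results. Normalized totals ran between 5578704 and 6084944 in CON, between 5701572 and 6098582 in LOS and between 4967112 and 5117859 in MOS. Read depth is not given in the sources used here. Of the values under 400, 98.3 to 99.9% per library lay within 0.01 steps of a whole multiple of 1 step, and if that step were 1 read the depth would be about 8800000 to 13500000 reads for CON, between 12900000 and 16800000 for LOS and between 7800000 and 9300000 for MOS. The values were not accepted as read counts, so these depths are uncertain and entered no test. Across all tested entries the correlation with single CON libraries was 0.915 to 0.920 for MOS3 and 0.881 to 0.887 for MOS1 and MOS2, a description over entries that share their libraries. Among marker miRNAs, the gonadal miR-202 summed to 2984 to 3652 normalized counts in CON, 3688 to 3992 in LOS, and 1675, 1791 and 1203 in MOS. The stroma and theca list (miR-143, miR-145, miR-199a, miR-199b and miR-214; of its 8 tested entries, 1 higher and 2 lower in MOS against CON) summed to 363181 to 399643 in CON, 352571 to 376849 in LOS, and 235709, 291625 and 420438 in MOS, nearly all of it ssc-miR-143-3p (396440 in MOS3). Its members did not run together: ssc-miR-143-3p and ssc-miR-145-5p_R-1 were highest of the MOS libraries in MOS3, while ssc-miR-199a-5p (261, 229 and 97.0 in MOS), ssc-miR-199a-3p_R-1 (231, 244 and 139), ssc-miR-199b-5p_R+1 (49.9, 40.8 and 24.9) and ssc-miR-214_R+1 (24.9, 28.0 and 13.002) were lowest there. The endothelial miR-126 gave 2449, 2377 and 3545 in MOS (CON 3169 to 3564), the leukocyte list 1005, 1521 and 2098 (CON 2459.9 to 2678) and the muscle list 1074, 976 and 1565 (CON 1677 to 1719.5). Of the 4 tested leukocyte entries, 1 was called higher and 2 lower in MOS against CON. Both arms of miR-142, most of that sum, were highest of the MOS libraries in MOS3. hsa-miR-223-3p (96.0, 278 and 114 in MOS) and ssc-miR-150 (27.4, 53.5 and 48.8) were highest in MOS2. The other lists were higher in some or all MOS libraries. The epithelial list gave 345, 338 and 164 in MOS (CON 6.32 to 17.0, LOS 138 to 187), with 4 of 4 tested entries called higher against CON and its mmu-miR-200b-3p_R+1 at 0 in all CON and LOS libraries. The neuron list, here miR-9 alone, gave 869, 699 and 764 in MOS (CON 510 to 557), with 4 of 4 called higher, 3 of them 1 sequence under 3 names. The liver miR-122 gave 64.8, 57.4 and 22.8 in MOS (CON 3.57 to 6.32) and the red blood cell list 315, 775 and 294 (CON 251 to 323.2), each with 1 entry called higher. MOS3 was thus the highest MOS library by sum for the stroma, endothelial, leukocyte and muscle lists. It was the lowest by sum for the gonadal, epithelial, liver and red blood cell lists, but not in every entry. The red blood cell hsa-miR-144-5p_R+1 (19.95, 24.2 and 46.6 in MOS) was highest of the MOS libraries in MOS3. So were the gonadal ssc-miR-202-3p_R+2 (12.5, 10.2 and 15.2) and the epithelial bta-miR-200a, while ssc-miR-144_R+1 was lowest in MOS1. The other tested entries of these lists were lowest in MOS3, and ssc-miR-451_R+1 stood at 542.998 in MOS2. The part of the list differences in the cluster's levels was not tested.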

How the data were processed

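Small RNA of 9 PGC libraries (3 each of CON, LOS and MOS) was measured by sequencing. The authors made TruSeq small-RNA libraries, passed reads through ACGT101-miR and compared those between 18 and 26 nt with miRBase 21. What the authors deposited is a normalized count, taken here as a signal, for 1345 entries (1 line held no entry). The normalization formula and genome build are not given in the sources used here, and no count model was run. Raw reads were not analysed here.

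The 757 entries with 3 or more libraries at 10 or above were fitted together, after adding 1 and taking log2, with limma 3.58.1 and a trended prior in R 4.3.3. The model held a mean per group, and p-values were adjusted by the Benjamini-Hochberg method. The fit was tested on simulated data. Read depth was not known: the steps between values would give about 7800000 to 16800000 reads per library if 1 step were 1 read, which was not established. Same-numbered libraries did not deviate together.

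Members, hairpin order and lists came from general knowledge of the human locus and were chosen with earlier results of these data known. Named entries were those called, the 12 highest means and their other arms; bta-miR-543, ssc-miR-376a-5p, hsa-miR-410-3p and other entries with the MOS3 pattern were named after their values were seen. Alternatives covered scaling, pseudocount, filters, trend, libraries in the fit, a replicate block, summed variants and shared values. Figures used Python 3.11.15 and matplotlib 3.10.9.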

Additional observations from a re-analysis of the deposited data

How the results depend on the processing

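The normalized counts carry an unstated scaling, only 3 libraries stand in each group, and 35 of 57 tested entries averaged under 100, so small changes of scarce entries could not be seen. With every library set to an equal total, the median log2 fold change of all tested entries moved by 0.21 in MOS against CON (0.28 in place of 0.07) and by 0.24 in MOS against LOS. The cluster entries called were then 14 (24.6%, against 25.6% of all tested entries) and 20 (35.1%, against 30.3%), all higher. In MOS against LOS the cluster's share was thus above that of all tested entries, where the main fit had it below (15.8% against 18.9%). The whole table gave 194 higher and 31 lower calls in MOS against CON in place of 153 and 69. In MOS against LOS it gave 229 and 44 in place of 143 and 82. The cluster median lay 0.13 above the median of all entries in MOS against CON under either scaling.

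Leaving out 1 library in turn gave 5 to 10 calls in MOS against CON (5 without CON2) and 7 to 14 in MOS against LOS (14 without MOS3). It gave 0 in LOS against CON, as did all other alternatives. No paired reading of the replicate numbers was used: same-numbered libraries correlated at −0.08 to 0.18 in their deviations, with 2 of 9 pairs over 0.1. A fit with the replicate block called 8, 0 and 10 cluster entries in MOS against CON, LOS against CON and MOS against LOS.

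Equal totals turned the sign of chi-miR-495-3p to 0.072 in MOS against CON and 0.021 in MOS against LOS, and of bta-miR-543 to 0.18 in MOS against LOS. With 1 library left out, log2 fold changes that crossed 0 in MOS against CON ran over −0.22 to 0.26 (ssc-miR-369), −0.057 to 0.25 (bta-miR-656), −0.52 to 0.10 (chi-miR-495-3p), −0.12 to 0.12 (chi-miR-411a-5p_L-1R+1), −0.85 to 0.22 (hsa-miR-127-5p_R+1), −0.084 to 0.27 (hsa-miR-369-5p_R-1), −0.41 to 0.38 (bta-miR-543) and −0.94 to 0.068 (ssc-miR-376a-5p). In MOS against LOS they ran over −0.60 to 0.022 (chi-miR-495-3p), −0.58 to 0.21 (bta-miR-543) and −0.99 to 0.0099 (ssc-miR-376a-5p). Of 794 fold changes of named entries under alternatives, 733 kept their direction and side of the threshold, 19 lost a call, 24 gained one and 18 turned sign.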
